A study of Trichoderma asperellum with 12 samples.

Results

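Mycelium of Trichoderma asperellum TJ01 held for 24 h with 1000 μg/mL dichlorvos was set against untreated mycelium (control), with 3 RNA-seq libraries in each group. Genes were kept where the mean over these 6 libraries was at least 1 FPKM (a read count scaled by transcript length and library size), which left 8953 of the 11647 listed genes. The filter was passed by 525 genes with a control mean under 1 FPKM and by 154 genes with a mean under 1 FPKM at 1000 μg/mL, so genes of that kind could enter only by being higher in the other group.

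The series holds 12 libraries of the one strain in 4 groups of 3, at 0, 100, 500 and 1000 μg/mL dichlorvos. All mycelium spent 24 h in potato dextrose medium before it was moved to Burk broth, where the treated cultures received dichlorvos, and was shaken there (180 rpm, 28 °C) for another 24 h. The study compared the groups to learn how the fungus tolerates the pesticide. The labels number the replicates and the methods speak of 3 repeats of each experiment, but neither says that the libraries came from separate cultures, so the p-values given here measure the spread between these libraries, which may be technical, and the strain is the only one examined.

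Dichlorvos is an organophosphorus insecticide that inhibits serine esterases, above all acetylcholinesterase in insects. Filamentous fungi are known to handle foreign compounds by oxidation or hydrolysis, by conjugation with the thiol peptide glutathione and by export through ATP-binding cassette (ABC) and major facilitator superfamily (MFS) transporters. Trichoderma species live in soil, parasitise other fungi with secreted chitinases and proteases, and coat their hyphae and spores with hydrophobins, small secreted proteins that assemble at the cell surface.

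The 3 libraries at 1000 μg/mL resembled each other, with Pearson correlations of 0.979 to 0.981 across genes on the log2(FPKM + 1) scale, and control replicates 2 and 3 correlated at 0.984. Control replicate 1 stood apart, at 0.897 and 0.896 with the other controls, and differed from their mean by over 2-fold in 3614 tested genes, of which it was higher in 2749 and lower in 865. The median FPKM of the tested genes was 20.7, 23.4 and 22.6 at 1000 μg/mL, against 25.5 in control replicate 1 and 15 and 16.2 in control replicates 2 and 3. The libraries' FPKM summed to between 895521 and 958261. Fold changes, the difference of group means of log2(FPKM + 1), 1000 μg/mL minus control, are therefore given from both fits. Where 2 log2 fold changes or standard errors (SE) stand on either side of a slash, the first is with all 12 libraries and the second without control replicate 1.

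A gene was called where limma gave a Benjamini-Hochberg adjusted p below 0.05 and a log2 fold change beyond 1 in size, and the words rose and fell are used of genes called the same way in both fits. With all 12 libraries, 1754 genes (19.6%) were higher and 697 (7.79%) lower at 1000 μg/mL than in control. Without control replicate 1, 2360 genes (26.4%) were higher and 685 (7.65%) lower. Both fits called 1633 genes higher (18.2%) and 507 lower (5.66%), and no gene was called in opposite directions. A further 727 genes passed as higher, and 178 as lower, only when control replicate 1 was left out. In a bulk culture, a change in the share of cells of one kind and a change in RNA per cell cannot be told apart.

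The risen genes had a median log2 fold change of 1.75, with 626 of them beyond 4-fold and 121 beyond 16-fold. The fallen genes had a median of -1.51, with 103 beyond 4-fold and 10 beyond 16-fold. Of the risen genes 340 had a control mean under 1 FPKM, and 45 of the fallen genes had a mean under 1 FPKM at 1000 μg/mL. The 6 libraries did not overlap between groups in 2393 genes higher (26.7%) and 1532 lower (17.1%) at 1000 μg/mL. When the 6 libraries were fitted alone, 1492 genes (16.7%) were higher and 539 (6.02%) lower.

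The balance of the directions depended on the scaling. Higher genes made up 71.6% of the calls with all libraries and 77.5% without control replicate 1, but 53.5% and 46.0% of them once each library was centred on its median over the tested genes. The median log2 fold change over all tested genes was 0.185 with all libraries and 0.376 without control replicate 1, against -0.078 and -0.113 after centring. The list medians that follow are to be read against the first pair. Shares of list members that rose or fell are to be read against 18.2% and 5.66% of all tested genes. Called in both fits with and without centring were 1105 genes higher (12.3%) and 506 lower (5.65%). Of the genes that rose or fell, 51.3% and 54.6% had a described function, as did 51.6% of all tested genes.

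**Figure D1:**
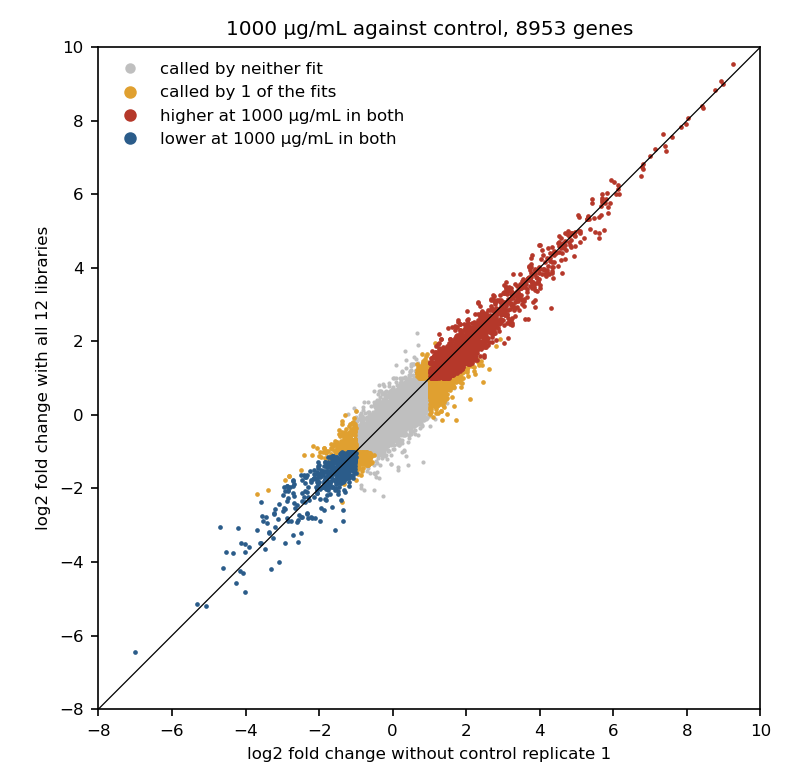
Log2 fold change of each of the 8953 tested genes at 1000 μg/mL against control, with all 12 libraries (vertical axis) and without control replicate 1 (horizontal axis), each point a gene, with the line of equality. The 1633 genes that rose and the 507 that fell lie along the line, and no gene was called in opposite directions by the fits.

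Function names come from the first KEGG entry of a gene, or from its described match in the nr protein database. The 12 described genes with the largest increases had 96.2 FPKM or more in every library at 1000 μg/mL and 18.6 FPKM or less in every control library. The gene jgi_Trias1_173708 had 3281, 4515 and 3350 FPKM at 1000 μg/mL, against 4.35, 5.64 and 7.66 FPKM in control replicates 1, 2 and 3. Its log2 fold change was 9.09 ± 0.21 (SE) with all libraries and 8.92 without control replicate 1. Its first KEGG entry is the mRNA surveillance factor pelota at an E-value of only 5e-23, so the name is uncertain. The gene jgi_Trias1_57246, matched to carboxyvinyl-carboxyphosphonate phosphorylmutase, an enzyme known from Streptomyces that forms a carbon-phosphorus bond, had 4091, 5643 and 4442 FPKM at 1000 μg/mL, against 8.29, 10.7 and 8.89 FPKM in control. Its log2 fold change was 8.84 ± 0.19 (SE) and 8.77 without control replicate 1.

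The glutathione S-transferase jgi_Trias1_74481, of the enzyme family that joins glutathione to electrophilic compounds, had 416, 521 and 461 FPKM at 1000 μg/mL, against 0.66, 0.82 and 0 FPKM in control (log2 fold change 8.33 / 8.43 ± 0.32 / 0.33 SE). As 1 control library lists it at 0, the size of that change rests on the pseudocount, and it was 10.1 with a pseudocount of 0.1. The methylated-DNA-protein-cysteine S-methyltransferase jgi_Trias1_61459, a repair protein that takes alkyl groups off guanine in DNA, had 3572, 2647 and 2886 FPKM at 1000 μg/mL, against 15.9, 11.6 and 18.6 FPKM in control (7.55 / 7.58 ± 0.31 / 0.34 SE). Of the 12 genes, only jgi_Trias1_57246 and jgi_Trias1_173708 had a higher mean FPKM at 1000 μg/mL. The NADPH2 dehydrogenase jgi_Trias1_56683, a flavin enzyme of the old yellow enzyme kind, had 502, 664 and 600 FPKM at 1000 μg/mL, against 3.15, 2.1 and 2.89 FPKM in control (7.31 / 7.4 ± 0.28 / 0.28 SE). The ABC transporter jgi_Trias1_146459, matched to the multidrug exporter SNQ2 of yeast, had 388, 532 and 326 FPKM at 1000 μg/mL, against 3.05, 2.34 and 3.16 FPKM in control (6.73 / 6.77 ± 0.29 / 0.30 SE). 

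The other 6 of the 12 span several functions. A selenocysteine lyase match (jgi_Trias1_199110) had a log2 fold change of 7.91 / 7.97, and the transaldolase jgi_Trias1_73965, of the non-oxidative pentose phosphate pathway, one of 6.32 / 6.01. The trypsin jgi_Trias1_25266, a secreted serine protease, had one of 6.04 / 5.82, and the 3-isopropylmalate dehydrogenase jgi_Trias1_59059, of leucine synthesis, one of 5.99 / 5.68. Matches to the RNase P subunit POP1 (jgi_Trias1_64727) and to the histone chaperone HIRA (jgi_Trias1_29651) had 6.01 / 6.06 and 5.89 / 5.68. The 12 did not share one pathway by name.

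**Figure D2:**
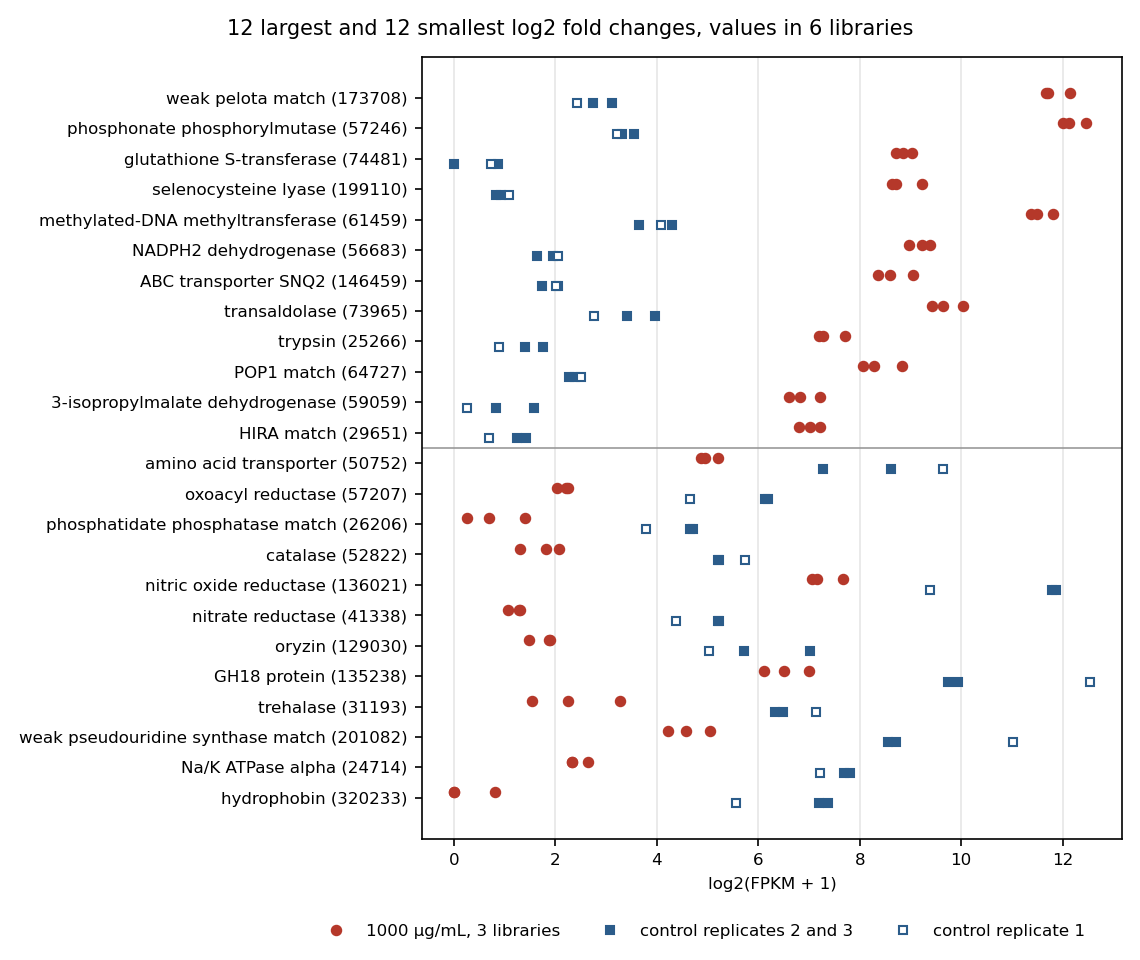
Log2(FPKM + 1) in each of the 6 libraries for the 12 described genes with the largest and the 12 with the smallest log2 fold change, with gene numbers in parentheses; circles are the 3 libraries at 1000 μg/mL, filled squares control replicates 2 and 3 and open squares control replicate 1. Genes were eligible only if the groups do not overlap, and control replicate 1 lies apart from the other controls in several fallen genes.

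The 12 described genes with the largest decreases were expressed in every control library. A hydrophobin, jgi_Trias1_320233, was listed at 0, 0 and 0.75 FPKM at 1000 μg/mL, against 46.5, 145 and 165 FPKM in control replicates 1, 2 and 3. Its log2 fold change was -6.44 ± 0.54 (SE) with all libraries and -7.01 without control replicate 1. The gene jgi_Trias1_24714, matched to the alpha subunit of the sodium/potassium-transporting ATPase, a cation pump, had 4.02, 4 and 5.2 FPKM at 1000 μg/mL, against 147, 223 and 204 FPKM in control (log2 fold change -5.14 / -5.32 ± 0.30 / 0.29 SE). Trehalase (jgi_Trias1_31193), which splits the storage sugar trehalose into glucose, had 8.71, 1.92 and 3.72 FPKM at 1000 μg/mL, against 140, 89.1 and 79.7 FPKM in control (-4.30 / -4.06 ± 0.47 / 0.50 SE). The subtilisin-type protease oryzin (jgi_Trias1_129030) had a log2 fold change of -4.17 / -4.62.

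A pair of nitrogen oxide enzymes was among the 12. Nitrate reductase (jgi_Trias1_41338), the first enzyme of nitrate assimilation, had 1.42, 1.08 and 1.46 FPKM at 1000 μg/mL, against 19.7, 36.6 and 36.0 FPKM in control (log2 fold change -3.73 / -4.01 ± 0.28 / 0.22 SE). The fungal nitric oxide reductase jgi_Trias1_136021, a cytochrome P450 of fungal denitrification, had 202, 132 and 142 FPKM at 1000 μg/mL, against 664 FPKM in control replicate 1 and 3533 and 3730 FPKM in control replicates 2 and 3. Its log2 fold change was -3.72 with all libraries and -4.53 without control replicate 1. The catalase jgi_Trias1_52822 had 3.21, 2.53 and 1.48 FPKM at 1000 μg/mL, against 52.4, 35.7 and 36.3 FPKM in control (-3.65 / -3.47 ± 0.27 / 0.24 SE).

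In other fallen genes control replicate 1 was the highest library by far. A glycoside hydrolase family 18 protein (jgi_Trias1_135238), of the chitinase family, had 90.2, 68.1 and 126 FPKM at 1000 μg/mL, against 5969 FPKM in control replicate 1 and 980 and 849 FPKM in control replicates 2 and 3. Its log2 fold change was -4.20 with all libraries and -3.30 without control replicate 1. A weak match to a tRNA pseudouridine synthase (jgi_Trias1_201082, E-value 5e-21) and an amino acid transporter (jgi_Trias1_50752) had the same pattern, with log2 fold changes of -4.82 and -3.50 with all libraries and of -4.02 and -2.94 without control replicate 1. The remaining members of the 12 were a phosphatidate phosphatase match (jgi_Trias1_26206, -3.60 / -3.89) and an oxoacyl reductase match of the short-chain dehydrogenase kind (jgi_Trias1_57207, -3.51 / -4.01). These 24 genes were taken from those already called with groups that do not overlap, and their adjusted p from limma was at most 0.000374 with all libraries and at most 0.000225 without control replicate 1.

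The lower doses share the control libraries with this comparison, so their values are given beside it without a test. The 12 risen and 12 fallen genes were picked for their extreme changes at 1000 μg/mL. The order of their means is thus partly fixed by that choice, and the counts below cannot show a dependence on dose. The mean of the 12 risen genes was higher at 1000 than at 500 μg/mL in 12, higher at 500 than at 100 μg/mL in 12, and higher at 100 μg/mL than in control in 12. The mean of the 12 fallen genes was lower at 1000 than at 500 μg/mL in 12 and lower at 500 than at 100 μg/mL in 12, and it was lower at 100 μg/mL than in control in 10. The exceptions at the low dose were trehalase (jgi_Trias1_31193), with a mean of 179 FPKM at 100 μg/mL and 103 FPKM in control, and the oxoacyl reductase jgi_Trias1_57207, with 56.4 and 55.3 FPKM.

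The steps between doses differed in size from gene to gene. The glutathione S-transferase jgi_Trias1_74481 averaged 0.493 ± 0.435 FPKM in control, 0.540 ± 0.01 at 100 μg/mL, 6.50 ± 2.95 at 500 μg/mL and 466 ± 52.7 at 1000 μg/mL (SD, n = 3 each). The methyltransferase jgi_Trias1_61459 averaged 15.3 ± 3.53 FPKM in control, 37.9 ± 7.12 at 100 μg/mL, 1035 ± 522 at 500 μg/mL and 3035 ± 480 at 1000 μg/mL. Nitrate reductase (jgi_Trias1_41338) averaged 30.8 ± 9.61 FPKM in control, 10.6 ± 1.86 at 100 μg/mL, 4.69 ± 0.811 at 500 μg/mL and 1.32 ± 0.209 at 1000 μg/mL. The glutathione S-transferase was within the spread of the controls at 100 μg/mL, while nitrate reductase already lay under every control library there.

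**Figure D3:**
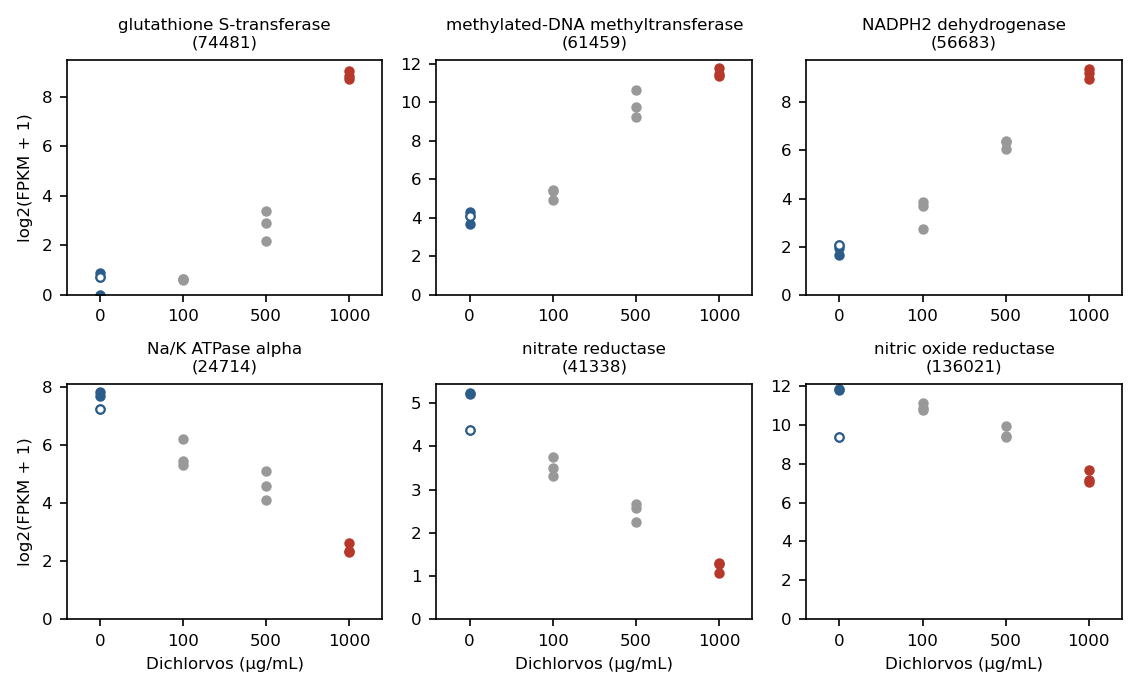
Log2(FPKM + 1) by dichlorvos dose (0, 100, 500 and 1000 μg/mL) for 3 of the risen and 3 of the fallen genes, with each point a library, blue for control (open for replicate 1), grey for 100 and 500 μg/mL and red for 1000 μg/mL. The glutathione S-transferase stays under 1 FPKM at 100 μg/mL and reaches 416 FPKM or more at 1000 μg/mL, and the nitrate reductase steps down with each dose.

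Glutathione enzymes had one of the highest shares of risen genes among the function lists. Of 27 tested glutathione S-transferases and other glutathione enzymes, 19 rose (70.4%, against 18.2% of all tested genes) and none was called lower, with a list median of 1.59 with all libraries and 1.81 without control replicate 1. A further glutathione S-transferase, jgi_Trias1_62326, had 643, 700 and 627 FPKM at 1000 μg/mL, against 18.6, 22.0 and 20.7 FPKM in control (log2 fold change 4.94 / 4.88 ± 0.17 / 0.15 SE). In the thioredoxin, glutaredoxin and peroxiredoxin list, whose proteins reduce disulphides and peroxides, 7 of 11 rose (63.6%) and none was called lower. Thioredoxin jgi_Trias1_152954 had 2946, 3068 and 2709 FPKM at 1000 μg/mL, against 254, 411 and 349 FPKM in control (3.13 / 2.94 ± 0.20 / 0.16 SE). A further thioredoxin, jgi_Trias1_82309, had a log2 fold change of 2.43 / 2.38. In both thioredoxins every library at 1000 μg/mL lay above every control library, which held for 8 of the 11 members and for 26.7% of all genes.

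Enzymes against superoxide and hydrogen peroxide moved both ways. Of 12 superoxide dismutases and catalases, 5 rose and 3 fell, which is 41.7% and 25.0%, against 18.2% and 5.66% of all genes. The catalase-peroxidase jgi_Trias1_197596 had 81.4, 86.8 and 75.5 FPKM at 1000 μg/mL, against 3.55, 13.9 and 16.2 FPKM in control (log2 fold change 2.97, and 2.36 without control replicate 1). The manganese superoxide dismutase jgi_Trias1_73687 had 39.0, 49.4 and 31.4 FPKM at 1000 μg/mL, against 12.3, 7.23 and 4.6 FPKM in control (2.25 / 2.57). Beside the catalase jgi_Trias1_52822 given above, the catalase jgi_Trias1_71163 also fell, with 11.9, 15.5 and 15.4 FPKM at 1000 μg/mL, against 39.5, 45.8 and 60.5 FPKM in control (-1.69 / -1.82). The list median was 0.77 with all libraries and 0.43 without control replicate 1, and turned to -0.06 with centring and without that library.

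Oxidising enzymes were also mixed, with more risen than fallen genes, as among all tested genes (18.2% and 5.66%). Cytochrome P450s, haem monooxygenases, had 3 risen and 2 fallen of 15 tested. Their risen share was near that of all genes. Their fallen share was higher than that of all genes, but it rests on 2 genes. The list leaves out the P450 nitric oxide reductase jgi_Trias1_136021 given above, which also fell (log2 fold change -3.72 / -4.53). The P450 jgi_Trias1_201383, annotated as an unspecific monooxygenase, had 509, 618 and 559 FPKM at 1000 μg/mL, against 31.6, 36.1 and 38.2 FPKM in control (log2 fold change 3.96 / 3.88 ± 0.16 / 0.14 SE), and jgi_Trias1_166901 followed at 1.40 / 1.60. The P450s jgi_Trias1_175388 and jgi_Trias1_200792 had log2 fold changes of -2.62 / -2.99 and -2.17 / -2.99, with under 1 FPKM in every library at 1000 μg/mL.

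Of 46 flavin and NADPH oxidoreductases, 20 rose (43.5%) and 2 fell (4.35%), against 18.2% and 5.66% of all genes. Of 9 members named for phenol 2-monooxygenase, which hydroxylates phenols, 4 rose and 1 fell. The gene jgi_Trias1_140627 had 51.1, 95.0 and 57.6 FPKM at 1000 μg/mL, against 0.27, 0.56 and 0.11 FPKM in control (log2 fold change 5.67 / 5.66), while jgi_Trias1_84126 had 2.02, 3.98 and 4.92 FPKM, against 20.7, 16.8 and 18.4 FPKM (-2.13 / -2.05). Of 14 members named for salicylate hydroxylase, another flavin monooxygenase of aromatic compounds, 7 rose, with log2 fold changes of up to 4.26, and 1 fell, jgi_Trias1_133934 (-2.34 / -2.88). In the list of aldehyde and alcohol dehydrogenases and aldo-keto reductases, 10 of 32 rose (31.2%) and 4 fell (12.5%). An NADP-dependent alcohol dehydrogenase (jgi_Trias1_146582) had 41.3, 57.1 and 35.8 FPKM at 1000 μg/mL, against 0.8, 0.49 and 0.16 FPKM in control (4.94 / 5.09), and an aryl-alcohol dehydrogenase (jgi_Trias1_55027) had a log2 fold change of 4.16 / 4.38. The alcohol dehydrogenases jgi_Trias1_54934 and jgi_Trias1_79854 had -3.26 / -2.71 and -2.73 / -2.55.

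Enzymes that by name cleave esters, phosphate esters or carbon-halogen bonds make up 3 lists. Whether any of them acts on dichlorvos was not tested. Of 30 esterases, lipases and cholinesterase-like hydrolases, 11 rose (36.7%) and 2 fell (6.67%). The tested member named acetylcholinesterase (jgi_Trias1_311981) was not called (log2 fold change 0.13 / 0.73). The paper counts more genes as acetylcholinesterases and reports that a gene among them changed significantly at this dose. The member tested here therefore does not stand for them all. The risen members include a match to phospholipase A-2-activating protein (jgi_Trias1_64536, 1.94 / 2.18), which is not named as an esterase. The esterase jgi_Trias1_205869, whose nr match is an arylacetamide deacetylase, had 13.1, 18.6 and 29.2 FPKM at 1000 μg/mL, against 0.45, 0.56 and 0.55 FPKM in control (log2 fold change 3.74 / 3.70). A triacylglycerol lipase (jgi_Trias1_70299) had 10.7, 10.2 and 7.54 FPKM at 1000 μg/mL, against 0, 0.38 and 0.38 FPKM in control (3.07 / 2.91, and 5.06 with a pseudocount of 0.1 and all libraries). The fallen members were a lysophospholipase (jgi_Trias1_62840, -1.88 / -1.71) and a calcium-independent phospholipase (jgi_Trias1_25936, -1.22 / -1.25, adjusted p = 0.0482 by limma), whose groups overlapped.

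Of 26 phosphate ester hydrolases, 8 rose (30.8%) and none fell. An acid phosphatase (jgi_Trias1_136560) had 7.01, 14.1 and 13.2 FPKM at 1000 μg/mL, against 0.14, 0.35 and 0.23 FPKM in control (log2 fold change 3.27 / 3.22, and 5.07 with a pseudocount of 0.1 and all libraries), and a phospholipase C (jgi_Trias1_199417) had a log2 fold change of 2.46 / 2.37. The median of this list was 0.61 with all libraries and 0.38 without control replicate 1, and -0.11 with centring and without that library. Of the 3 dehalogenases, which cleave carbon-halogen bonds, 2 rose (66.7%, against 18.2% of all genes). The 2-haloacid dehalogenase jgi_Trias1_58310 had 301, 342 and 516 FPKM at 1000 μg/mL, against 24.2, 39.3 and 59.9 FPKM in control (3.25 / 2.93 ± 0.29 / 0.23 SE). The haloalkane dehalogenase jgi_Trias1_61111 had 109, 34.4 and 37.9 FPKM at 1000 μg/mL, against 9.11, 17.7 and 15.9 FPKM in control (1.85 / 1.58), and lost its call with centring and without control replicate 1 (1.09).

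Of 32 ABC transporters, 18 rose (56.2%) and none fell in both fits, with list medians of 1.28 and 1.57. Beside the SNQ2 match above, the PDR-type transporter jgi_Trias1_183505, of the fungal drug efflux family, had 42.8, 52.7 and 31.3 FPKM at 1000 μg/mL, against 0.09, 0.04 and 0.04 FPKM in control. Its log2 fold change was 5.33 / 5.35 with a pseudocount of 1 and 8.06 with 0.1 and all libraries, so its size rests on the pseudocount. MFS transporters other than sugar carriers moved both ways, with 12 of 57 risen (21.1%) and 7 fallen (12.3%). The DHA1 family multidrug carrier jgi_Trias1_134523 had 474, 577 and 270 FPKM at 1000 μg/mL, against 18.5, 28.7 and 16.9 FPKM in control (4.27 / 4.19), and jgi_Trias1_204111 of the same family had 4.95 / 4.86. Another DHA1 carrier, jgi_Trias1_155430, had -1.81 / -1.88, and -3.05 with a pseudocount of 0.1 and all libraries. The inorganic phosphate carrier jgi_Trias1_127574 had 65.6, 116 and 86.5 FPKM at 1000 μg/mL, against 692, 219 and 269 FPKM in control (-1.97 / -1.47).

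Of 33 sugar transporters, 4 rose and 4 fell (12.1% each, against 18.2% and 5.66% of all genes). The alpha-glucoside symporter jgi_Trias1_138828 had 98.5, 134 and 112 FPKM at 1000 μg/mL, against 10.4, 4.32 and 5.02 FPKM in control (log2 fold change 4.01 / 4.34), and a myo-inositol carrier (jgi_Trias1_39190) had 2.67 / 2.70. The sugar symporter jgi_Trias1_26261 had 8.69, 8.22 and 7.04 FPKM at 1000 μg/mL, against 6.74 FPKM in control replicate 1 and 173 and 307 FPKM in control replicates 2 and 3. Its groups therefore overlapped, and its log2 fold change was -3.06 with all libraries and -4.69 without control replicate 1. Another myo-inositol carrier (jgi_Trias1_24747) had -2.79 / -2.12. Of 33 amino acid and peptide transporters, 7 rose (21.2%) and 5 fell (15.2%). An amino acid transporter (jgi_Trias1_52803) and an oligopeptide transporter (jgi_Trias1_238661) rose, with log2 fold changes of 2.96 / 3.57 and 2.5 / 3.11, and control replicate 1 was the highest control library in both. The oligopeptide transporter jgi_Trias1_150021 had 171, 210 and 281 FPKM at 1000 μg/mL, against 2189, 1031 and 1140 FPKM in control (-2.66 / -2.32).

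The breakdown of fatty acids was the largest list in which most members rose. Of 62 tested genes of beta-oxidation, carnitine transfer and the peroxins that build peroxisomes, 45 rose (72.6%) and 1 fell, and 59 of the 62 had a positive log2 fold change. The list median was 1.61 with all libraries, 1.74 without control replicate 1 and 1.25 with centring and without that library. The FPKM of its members summed to 27806, 28538 and 29967 at 1000 μg/mL, against 9757, 9750 and 6842 in control, with no overlap. The very long-chain acyl-CoA synthetase jgi_Trias1_148031, which activates fatty acids, had 54.7, 84.6 and 82.2 FPKM at 1000 μg/mL, against 9.5, 6.93 and 4.61 FPKM in control (log2 fold change 3.24 / 3.46). An L-carnitine dehydratase match (jgi_Trias1_37696) had 3.84 / 4.26, and the fallen member, a mitochondrial carnitine/acylcarnitine carrier (jgi_Trias1_133357), -1.15 / -1.05.

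The glyoxylate cycle lets fungi build sugars from the acetyl-CoA that fatty acids yield. Malate synthase (jgi_Trias1_132204), one of its key enzymes, had 3257, 3068 and 3583 FPKM at 1000 μg/mL, against 895, 884 and 685 FPKM in control (log2 fold change 2.01 / 2.08 ± 0.21 / 0.19 SE). Citrate synthase jgi_Trias1_200927 had 610, 545 and 512 FPKM at 1000 μg/mL, against 173, 159 and 204 FPKM in control (1.63 / 1.61 ± 0.17 / 0.17 SE). These were among 3 of 22 genes of the TCA and glyoxylate cycles that rose (13.6%), below the 18.2% of all genes, and none fell. The subunits of the respiratory chain and ATP synthase were not called in either direction in both fits (0 of 47), with a list median of -0.11 with all libraries and 0.18 without control replicate 1. At an unadjusted p under 0.05 in limma, 3 of them were higher and 7 lower with all libraries, against 29.7% and 17.0% of all genes, and the rewritten NOISeq rule, described with the methods, called none. The ATP synthase beta subunit jgi_Trias1_83653 had 944, 1138 and 1046 FPKM at 1000 μg/mL, against 1472, 1054 and 1109 FPKM in control (log2 fold change -0.21 / -0.06, adjusted p = 0.407 by limma with all libraries and 0.757 without control replicate 1).

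Sugar breakdown was split between gene copies. In glycolysis and gluconeogenesis 4 of 20 rose and 4 fell (20% each). Of the pyruvate decarboxylases, which start ethanol formation, jgi_Trias1_63019 had 12.2, 18.2 and 18.3 FPKM at 1000 μg/mL, against 2.42, 0.1 and 0.69 FPKM in control (log2 fold change 3.20 / 3.64). The more abundant copy, jgi_Trias1_187777, had 933, 928 and 804 FPKM at 1000 μg/mL, against 876 FPKM in control replicate 1 and 5593 and 6119 FPKM in control replicates 2 and 3, so its groups overlapped (-1.81, and -2.72 without control replicate 1). A pyruvate kinase match (jgi_Trias1_72132) had 1.83 / 2.10 and an enolase (jgi_Trias1_205633) -3.13 / -3.68. In the pentose phosphate pathway, which supplies NADPH, 3 of 14 rose (21.4%) and 2 fell (14.3%). Ribose 5-phosphate isomerase B (jgi_Trias1_71090) had 4.98, 10.7 and 11.5 FPKM at 1000 μg/mL, against 0, 0.42 and 1.25 FPKM in control (2.70 / 2.42, and 4.38 with a pseudocount of 0.1 and all libraries). A 6-phosphogluconate dehydrogenase (jgi_Trias1_182338) had 0.9, 0.7 and 1.16 FPKM at 1000 μg/mL, against 30.3, 7.16 and 8.46 FPKM in control (-2.81 / -2.20), and a ribose-phosphate pyrophosphokinase (jgi_Trias1_136069) -1.44 / -1.07.

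Lipid synthesis did not follow lipid breakdown in its counts. Of 41 genes of fatty acid and phospholipid synthesis, 4 rose and 4 fell (9.76% each). The delta-9 desaturase jgi_Trias1_23792, which makes oleic acid, had 3104, 3444 and 3122 FPKM at 1000 μg/mL, against 725, 1508 and 1027 FPKM in control (log2 fold change 1.63 / 1.37), and lost its call with centring and without control replicate 1 (0.88). A lysophosphatidate acyltransferase (jgi_Trias1_181262) had 1.55 / 1.56 and a fatty acid elongase (jgi_Trias1_80609) -1.84 / -1.87. Of 29 genes of sterol and isoprenoid synthesis, 4 rose (13.8%) and none fell in both fits. The sterol carrier protein jgi_Trias1_61501 had 1273, 1888 and 1724 FPKM at 1000 μg/mL, against 152, 160 and 86.9 FPKM in control (3.63 / 3.75). It is also a thiolase, and its nr match is a lipid-transfer protein, so by name it is not an enzyme of sterol synthesis. Methylsterol monooxygenase (jgi_Trias1_55398), of ergosterol synthesis, had 3.04 / 3.15.

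**Figure D4:**
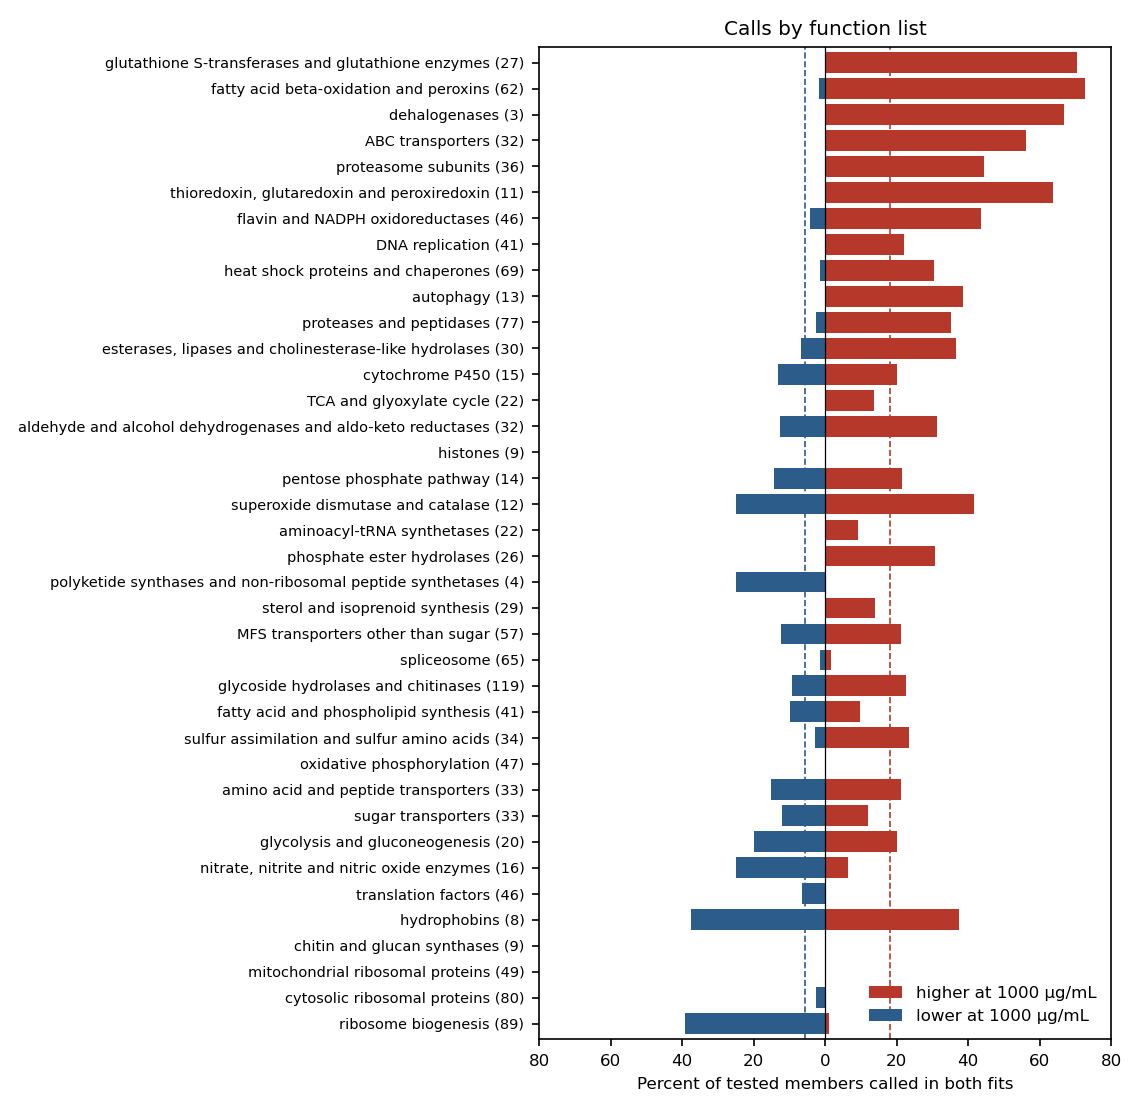
Percent of the tested members of each function list that were higher (red, right) or lower (blue, left) at 1000 μg/mL in both fits, with the number tested in parentheses and lists ordered by their median log2 fold change without control replicate 1; dashed lines mark the 18.2% and 5.66% of all tested genes. Fatty acid beta-oxidation with peroxins (72.6%) and glutathione enzymes (70.4%) have the highest shares of risen members, and ribosome biogenesis (39.3%) the highest share of fallen ones.

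Genes that build ribosomes held the most fallen members. Of 89 ribosome biogenesis genes, which process ribosomal RNA and assemble the subunits, 35 fell (39.3%, against 5.66% of all genes) and 1 rose. With all libraries 61 were lower and without control replicate 1 35 were, and the list medians were -1.27 and -0.87. In this list control replicate 1 lay above the other controls by a median of 1.02 on the log2 scale, against 0.516 over all genes. The members' FPKM summed to 3585, 4046 and 3991 at 1000 μg/mL, against 13073 in control replicate 1 and 6579 and 7052 in control replicates 2 and 3, so the groups did not overlap with or without that library. The pre-rRNA processing factors UTP21 (jgi_Trias1_65205) and TSR1 (jgi_Trias1_72524) had log2 fold changes of -1.97 / -1.88 and -1.93 / -1.80. UTP21 had 27.4, 25.4 and 32.3 FPKM at 1000 μg/mL, against 128, 94.3 and 121 FPKM in control. The risen member, matched to ribosome assembly protein 1 (jgi_Trias1_82508), had 6.51, 7.82 and 12.7 FPKM at 1000 μg/mL, against 6.8, 2 and 1.46 FPKM in control (1.33 / 1.83), with overlapping groups.

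The ribosomal proteins themselves leaned the same way by less than the call threshold. Of 80 cytosolic ribosomal proteins, 77 had a negative log2 fold change with all libraries and 74 without control replicate 1, but 2 fell and none rose. The list medians were -0.55 and -0.43. The members' FPKM summed to 28910, 38644 and 38034 at 1000 μg/mL, against 59687, 44716 and 46006 in control. The fallen members were matched to L17e (jgi_Trias1_146589, log2 fold change -1.26 / -1.26) and L24e (jgi_Trias1_80664, -1.23 / -1.06). The groups did not overlap in 65 of the 80, with 1000 μg/mL lower, and in 1 with 1000 μg/mL higher, against 17.1% and 26.7% of all genes. At an unadjusted p under 0.05 in limma 58 were lower and 1 higher, against 17.0% and 29.7% of all genes. Of 49 mitochondrial ribosomal proteins, none was called in both fits (26 lower and 2 higher at an unadjusted p under 0.05 in limma, none by the NOISeq rule), with medians of -0.49 and -0.33, and the most abundant, S2 (jgi_Trias1_132126), had a log2 fold change of -0.41 / -0.79, with an adjusted p by limma of 0.365 with all libraries and 0.0296 without control replicate 1, and was called lower with centring and without that library (-1.27). Of 46 translation factors 3 fell (6.52%, close to the 5.66% of all genes) and none rose, against 18.2% of all genes. The fallen ones included initiation factor 2A (jgi_Trias1_44717, -1.50 / -1.28) and elongation factor G (jgi_Trias1_200334, -1.31 / -1.39).

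Aminoacyl-tRNA synthetases, which load tRNAs, had 2 of 22 risen (9.09%) and none fallen. An aspartyl-tRNA synthetase (jgi_Trias1_131193) had 962, 899 and 435 FPKM at 1000 μg/mL, against 87.8, 208 and 76.1 FPKM in control (log2 fold change 2.68 / 2.51). Methionyl-tRNA synthetase (jgi_Trias1_140143) had 157, 173 and 190 FPKM at 1000 μg/mL, against 78.5, 72.4 and 69.1 FPKM in control (1.23 / 1.28), and lost its call with centring (0.96 with all libraries). The groups did not overlap in either gene. In this list 3 genes were higher and 2 lower without overlap, against 26.7% and 17.1% of all genes.

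Genes of protein breakdown rose in several lists. All 36 tested proteasome subunits had a positive log2 fold change in both fits, and 16 rose (44.4%) and none fell. The count depended on control replicate 1, with 16 higher when it was kept and 31 without it, and that library lay above the other controls by a median of 1.32 on the log2 scale over this list. The subunits' FPKM summed to 2814, 3096 and 3206 at 1000 μg/mL, against 2867 in control replicate 1 and 1121 and 1172 in control replicates 2 and 3. Control replicate 1 thus lay within the range at 1000 μg/mL, while the other controls lay well under it. The beta 6 subunit jgi_Trias1_83522 had 129, 152 and 153 FPKM at 1000 μg/mL, against 74.5, 35.0 and 43.3 FPKM in control (log2 fold change 1.56 / 1.86), and the regulatory subunit 10 (jgi_Trias1_70816) had 1.53 / 2.05.

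Of 77 proteases and peptidases, 27 rose (35.1%) and 2 fell (2.60%). The keywords of this list missed the trypsin jgi_Trias1_25266 (6.04 / 5.82) and the oryzin jgi_Trias1_129030 (-4.17 / -4.62) given above, so its counts leave out some proteases. Methionyl aminopeptidase (jgi_Trias1_198850), which trims the first methionine from new proteins, had 102, 118 and 104 FPKM at 1000 μg/mL, against 3.92, 4.12 and 3.07 FPKM in control (log2 fold change 4.54 / 4.57 ± 0.17 / 0.16 SE). A pepsin-type protease (jgi_Trias1_183570) had 4.47 / 4.06. The fallen members of this list were both secreted-type aspartic proteases, jgi_Trias1_178003 (-2.30 / -1.40) and jgi_Trias1_131288 (-2.10 / -1.29). In both, control replicate 1 was the highest library, and the first of them had 97.2, 85.9 and 101 FPKM at 1000 μg/mL, against 1645 FPKM in control replicate 1 and 328 and 193 FPKM in control replicates 2 and 3. Among the gene ontology terms with at least 20 tested genes, endopeptidase activity had the highest share of risen genes, 16 of 35 (45.7%), with none fallen. In autophagy, 5 of 13 rose (38.5%, against 18.2% of all genes) and none fell (against 5.66%). The risen ones included the conjugation enzymes ATG7 (jgi_Trias1_168695, 2.60 / 2.91) and ATG3 (jgi_Trias1_184377, 1.77 / 2).

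Of 69 heat shock proteins and chaperones, 21 rose (30.4%) and 1 fell. With all libraries 22 were higher and without control replicate 1 35 were, and that library lay above the other controls by a median of 0.82 on the log2 scale. A protein disulfide isomerase (jgi_Trias1_51030), which folds secreted proteins, had 93.8, 112 and 75.3 FPKM at 1000 μg/mL, against 13.5, 6.41 and 6.49 FPKM in control (log2 fold change 3.33 / 3.65). The disaggregase ClpB (jgi_Trias1_61928) had 410, 415 and 321 FPKM at 1000 μg/mL, against 23.3, 89.0 and 135 FPKM in control (2.51, and 1.78 without control replicate 1). The fallen member, an HSP70 (jgi_Trias1_140277), had 400, 446 and 441 FPKM at 1000 μg/mL, against 1823, 1080 and 1125 FPKM in control (-1.60 / -1.36).

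DNA replication genes had a share of risen members near that of all genes, and their count rested on control replicate 1. Of 41, 9 rose (22.0%, against 18.2% of all genes) and none fell (against 5.66%). With that library 9 were higher and without it 21, against 19.6% and 26.4% of all genes. The list medians were 0.47 and 1.05, and control replicate 1 lay above the other controls by a median of 1.81 on the log2 scale. The members' FPKM summed to 802, 1006 and 1022 at 1000 μg/mL, against 1287 in control replicate 1 and 376 and 402 in control replicates 2 and 3. Replication factor A2 (jgi_Trias1_23679), a single-stranded DNA binding protein, had 86.4, 104 and 106 FPKM at 1000 μg/mL, against 65.4, 19.4 and 16.5 FPKM in control (log2 fold change 1.79 / 2.39). A DNA polymerase delta subunit (jgi_Trias1_27724) had 7.4, 13.8 and 14.7 FPKM at 1000 μg/mL, against 10.8, 1.18 and 1.69 FPKM in control, with groups that overlapped through control replicate 1 (1.61 / 2.37).

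None of 9 histones was called by limma or the NOISeq rule (3 higher and none lower at an unadjusted p under 0.05 in limma). Histone H3 (jgi_Trias1_179857) had 2898, 2776 and 2918 FPKM at 1000 μg/mL, against 2454, 3552 and 3277 FPKM in control (log2 fold change -0.09 / -0.25, adjusted p = 0.754 by limma with all libraries and 0.184 without control replicate 1). Of 65 spliceosome genes 1 rose, splicing factor 1 (jgi_Trias1_153039, log2 fold change 1.15 / 1.56), and 1 fell, the helicase PRP43 (jgi_Trias1_128240, -1.44 / -1.20), which is 1.54% each. Splicing factor 1 was not called with centring and all libraries (0.89) or with the 6 libraries fitted alone. PRP43 is known to act in ribosome assembly as well as in splicing.

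Glycoside hydrolases, not all of which act on cell walls, moved both ways. Of 119 tested glycoside hydrolases and chitinases, 27 rose (22.7%) and 11 fell (9.24%), against 18.2% and 5.66% of all genes. The chitinase CHI42 (jgi_Trias1_72752), an enzyme by which Trichoderma attacks other fungi, had 55.5, 80.8 and 59.5 FPKM at 1000 μg/mL, against 4.16, 5.75 and 6.25 FPKM in control (log2 fold change 3.37 / 3.22 ± 0.21 / 0.17 SE). Another chitinase, jgi_Trias1_41515, had 3.64 / 3.52, while trehalase and the family 18 protein jgi_Trias1_135238 described earlier had the lowest values of the list. None of 9 chitin and glucan synthases was called in both fits or by the NOISeq rule (1 higher and 2 lower at an unadjusted p under 0.05 in limma). The most abundant, the chitin synthase jgi_Trias1_55848, had 299, 296 and 294 FPKM at 1000 μg/mL, against 291, 465 and 564 FPKM in control (log2 fold change -0.52 / -0.79). Its adjusted p by limma was 0.0934 with all libraries and 0.00131 without control replicate 1, and it was called lower with centring and without that library (-1.28).

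Hydrophobins split, with 3 of 8 risen and 3 fallen (37.5% each). The hydrophobin jgi_Trias1_54184 had 24209, 23825 and 25197 FPKM at 1000 μg/mL, against 1257, 1115 and 1229 FPKM in control (log2 fold change 4.35 / 4.38 ± 0.24 / 0.21 SE). It was the most abundant gene named here in every library at 1000 μg/mL. It averaged 8597 ± 1367 FPKM at 100 μg/mL and 15860 ± 2202 FPKM at 500 μg/mL (SD, n = 3 each). Hydrophobin 1 (jgi_Trias1_144631) had 115, 166 and 158 FPKM at 1000 μg/mL, against 37.1, 32.3 and 34.8 FPKM in control (2.03 / 2.07). The fallen hydrophobin jgi_Trias1_54328 had 188, 138 and 158 FPKM at 1000 μg/mL, against 289, 715 and 700 FPKM in control (-1.71 / -2.14), beside jgi_Trias1_320233, which was near 0 at 1000 μg/mL. At the lower doses jgi_Trias1_54328 was not lower than in control, with 568 ± 242 FPKM in control, 1846 ± 328 at 100 μg/mL and 961 ± 107 at 500 μg/mL (SD, n = 3 each). The 2 groups did not overlap in any of these 4 hydrophobins, 2 higher and 2 lower of 8 tested, against 26.7% and 17.1% of all genes. The other risen and the other fallen member had overlapping groups.

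Of 34 genes of sulfur assimilation and sulfur amino acids, 8 rose (23.5%) and 1 fell (2.94%), against 18.2% and 5.66% of all genes. An alkanesulfonate monooxygenase match (jgi_Trias1_296244) had 15.1, 18.7 and 11.6 FPKM at 1000 μg/mL, against 0.32, 0.65 and 1.03 FPKM in control (log2 fold change 3.27 / 3.11). Of the homoserine O-acetyltransferases, of methionine synthesis, jgi_Trias1_54984 had 3.19 / 3.22 and the fallen member, jgi_Trias1_57800, -1.07 / -1.07. In the list of nitrate, nitrite and nitric oxide enzymes 4 of 16 fell (25.0%), among them the nitrate and nitric oxide reductases given above. The 1 that rose (6.25%) was a glutamine synthetase match (jgi_Trias1_149345, 1.01 / 1.25), by name not a nitrogen oxide enzyme. It was not called with centring. Of 4 tested polyketide and non-ribosomal peptide synthetases, none rose in both fits and 1 fell (jgi_Trias1_456914, -1.75 / -1.84, and -2.76 with a pseudocount of 0.1 and all libraries), at under 1 FPKM in every library at 1000 μg/mL. A list of conidiation proteins found no member, so spore formation could not be read from it.

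**Figure D5:**
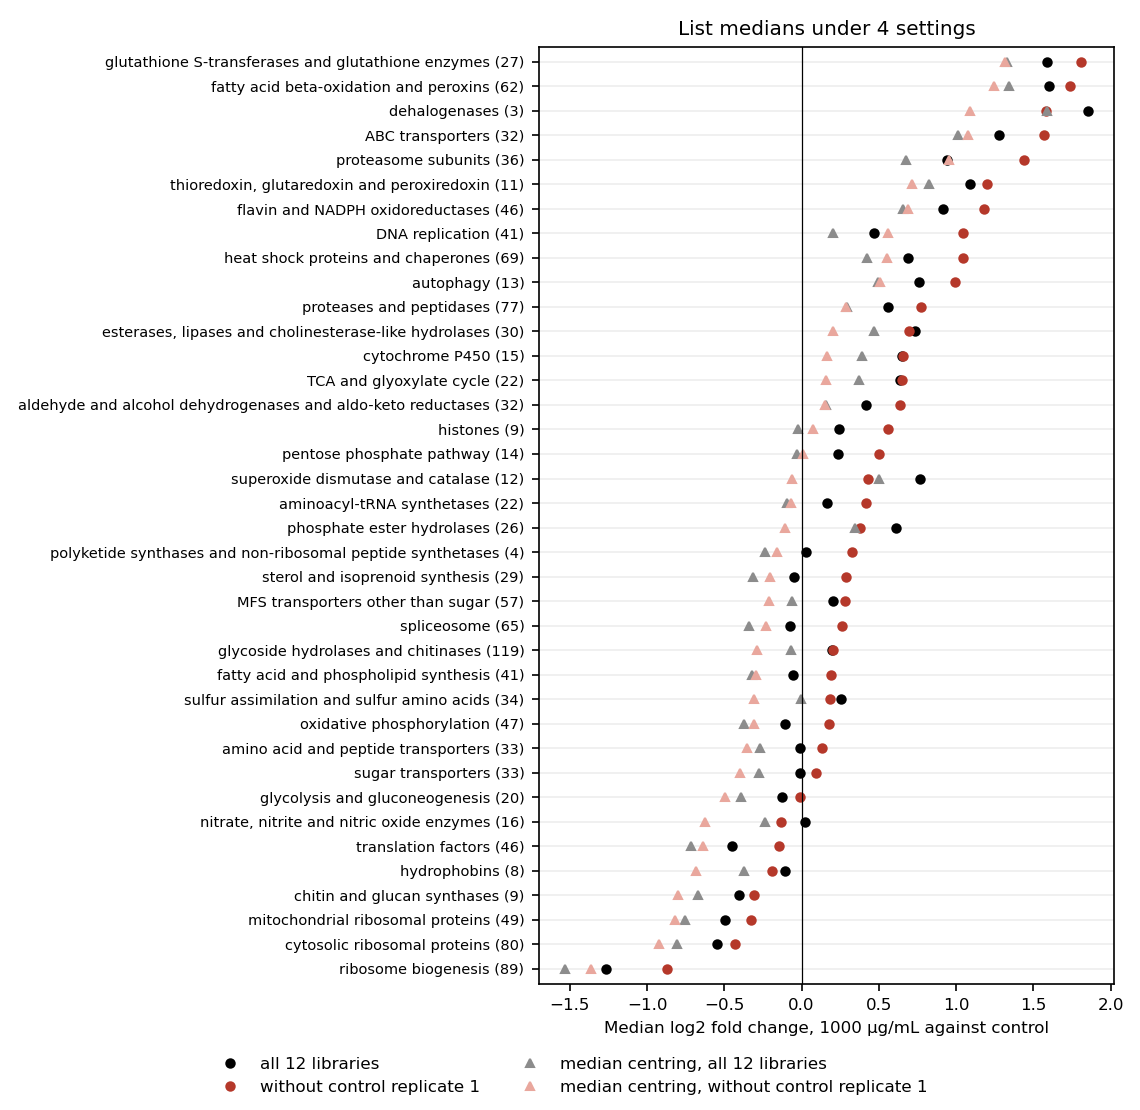
Median log2 fold change of each function list at 1000 μg/mL against control, with all 12 libraries (black circles), without control replicate 1 (red circles) and with each library centred on its median, with all 12 libraries (grey triangles) and without control replicate 1 (pale triangles). Centring moves every list to lower values, and the medians of ribosome biogenesis, the ribosomal proteins and the translation factors lie under 0 and those of glutathione enzymes, beta-oxidation and ABC transporters over 1 in all 4 settings.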

How the data were processed

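RNA was sequenced from 12 libraries, 3 per group. The authors deposited FPKM values per gene, made against the Trias1 gene models of T. asperellum from JGI; the submitters' processing notes name BWA, Bowtie and RSEM without versions or roles. The deposited FPKM are normalised, so no count test was run and the depth behind each value is unknown; steps between low values put the depth of control replicate 1 at 0.824 of that of control replicate 2.

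Values were taken as log2(FPKM + 1), and the 1000 μg/mL and control groups were compared with limma 3.58.1 (R 4.3.3, intensity trend on, all 12 libraries sharing the spread) for genes with a mean of at least 1 FPKM over the 6 libraries. Benjamini-Hochberg adjustment ran over all 8953 genes, and the fit was repeated without control replicate 1. With 3 libraries against 3, an exact two-sided permutation test cannot go below p = 0.1, so single genes were not tested that way. The members and lists were chosen with earlier results of these data known. A function needed a match at an E-value of 1e-20 or less. Named genes are the 12 largest and 12 smallest log2 fold changes among described genes called in both fits with groups that do not overlap, and in each of 39 lists the 2 called members at either end, or the most abundant member where none was called. Lists rest on automatic annotation, overlap in places and cover 1371 tested genes. A few genes carry the same KEGG entry, and there the best match alone was kept for single-copy proteins. Alternatives were another pseudocount (0.1), other filters, TPM scaling, median centring, a replicate block, the 6 libraries alone, no intensity trend, array weights, each library left out, and the study's NOISeq rule rewritten from its definition, which asks for an absolute log2 ratio of group means above 1 (zeros set to 0.01) and a probability above 0.8 against the differences between replicates of the 6 libraries. None of the gene IDs matched the RefSeq table (0 of 8953), so no sequence or position is given. Tables were made with Python 3.11.15 and pandas 2.3.3.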

Additional observations from a re-analysis of the deposited data

How the results depend on the processing

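The count of higher genes (1754) stayed within 1.5 times of itself under all alternatives but the rewritten NOISeq rule, which called 396 genes higher and 154 lower with all 6 libraries, and 898 higher and 395 lower without control replicate 1. That rule ran over all 11647 listed genes. Neither pair of counts equals the one the study reported for this dose, so the rewritten rule is not an exact copy of the study's. The pair without control replicate 1 lay slightly above the study's counts, and the pair with all 6 libraries lay well under them. The count of lower genes (697) moved to 1126 with median centring and to 1535 with median centring and without control replicate 1. Leaving out each library in turn gave 1518 to 2360 higher and 616 to 772 lower genes, the 2360 being without control replicate 1. Array weights, whose estimate stopped before convergence, gave that library a weight of 0.0615, and 2364 genes higher and 759 lower.

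With a replicate block, 1787 genes were higher and 714 lower. Deviations from the group means of same-numbered libraries at 1000 μg/mL and in control correlated at -0.209, 0.00171 and -0.123. These values show no likeness within the pairs compared here, but cannot tell whether the libraries were paired. Over all groups the correlations ran between -0.315 and 0.494, and those of 100 μg/mL with control were above 0.1 in each pair (0.494, 0.16 and 0.433). Those of 500 μg/mL were 0.408, 0.0561 and 0.398 with 100 μg/mL, and 0.333, -0.00821 and 0.332 with control.

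Of the 116 named genes, 1 changed sign: histone H3 (jgi_Trias1_179857), not called, with a log2 fold change of -0.09, ranged between -0.253 and 0.014 as single libraries were left out, the positive value being without control replicate 2. Median centring left 3 named genes short of the threshold with all libraries and 4 without control replicate 1, among them glutamine synthetase (jgi_Trias1_149345) and methionyl-tRNA synthetase (jgi_Trias1_140143), and 44 missed the NOISeq rule with all libraries. Fitted on the 6 libraries alone, 7 lost their call (jgi_Trias1_25936, jgi_Trias1_26261, jgi_Trias1_187777, jgi_Trias1_82508, jgi_Trias1_70816, jgi_Trias1_27724 and jgi_Trias1_153039). With a pseudocount of 0.1 the log2 fold change of 6 named genes, all near 0 FPKM in a group, grew by over 1.5 times. The depth is unknown, so a gene listed at 0 may be present below the reach of the library.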

Other observations

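Genes without a described function are left out of the lists. The 4 given here were chosen after their values were seen, as the called undescribed genes with the most extreme log2 fold changes. The gene jgi_Trias1_155328 had 909, 1316 and 1092 FPKM at 1000 μg/mL, against 0, 2.17 and 0 FPKM in control, and jgi_Trias1_49599 had 2234, 2819 and 2272 FPKM, against 3.68, 4.17 and 3.39 FPKM. Among fallen genes, jgi_Trias1_56705 had 8.01, 5.5 and 5.02 FPKM at 1000 μg/mL, against 312, 334 and 166 FPKM in control, and jgi_Trias1_149611 had 1.58, 1.15 and 4.05 FPKM, against 108, 54.4 and 60.3 FPKM. The files give them no function by the match rule used here.

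Among the 46 gene ontology terms with at least 20 tested genes, the largest without a risen gene was gene expression, with 0 of 86 risen and 5 fallen (5.81%), close to the 5.66% of all tested genes. The term metabolic process had 91 of 265 risen (34.3%) and 26 fallen (9.81%), and transport 19 of 148 risen (12.8%) and 14 fallen (9.46%). DNA binding had 9 of 27 risen (33.3%) and none fallen.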
